A study of Mus musculus with 6 samples.

Results

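The calcium/calmodulin-dependent protein kinase (CaM kinase) and calcineurin genes are 9 genes of the adult hippocampus, found by exact gene symbol among the 24346 symbols listed for each library: Camk2a, Camk2b, Camk2d, Camk2g, Camk4, Ppp3ca, Ppp3cb, Ppp3r1 and Nrgn. All 9 were listed, and all 9 passed the filter on low values (1 FPKM or more in at least 3 libraries, 13122 genes). Total RNA of the hippocampus came from 12-month-old C57BL/6 mice. There were 3 libraries of TonEBP+/- animals (HET 1 to HET 3), which carry 1 disrupted allele of the gene for the tonicity-responsive enhancer binding protein, and 3 of their wild-type littermates (TonEBP+/+; WT 1 to WT 3). Both genotypes came from crosses of TonEBP+/- parents, after 5 to 6 generations of backcrossing to C57BL/6J. No treatment is named. The position of the disruption within the gene, the sex of the mice and whether each library was 1 animal are not in the labels, so p-values measure the spread between these samples, which may be technical.

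In neurons, calcium that enters through receptors and channels binds calmodulin, and calmodulin then activates a kinase and a phosphatase that act on many of the same synapses. CaMKII is a ring of subunits from 4 genes (alpha from Camk2a, beta from Camk2b, delta from Camk2d, gamma from Camk2g). It can stay active after calcium has fallen because it phosphorylates a threonine in its own regulatory segment, and in the hippocampus it is best known for its part in long-term potentiation. Calcineurin joins a catalytic subunit (Ppp3ca or Ppp3cb) to a calcium-binding regulatory subunit (Ppp3r1) and dephosphorylates, among others, the NFATc transcription factors, whereas TonEBP, encoded by Nfat5, belongs to the same family but does not depend on calcineurin.

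The CaMKII paralogs had to be told apart by short reads, and the segment that holds the autophosphorylated threonine is shown for 3 of them because it carries the site that keeps the kinase active. The stretches are the sense strand of the coding sequence in GENCODE M21 transcripts (GRCm38), 63 bases each, with the threonine codon (codon 287 in all 3) in capitals. Camk2b lies on chromosome 11 (5969644 to 6066362, minus strand), Camk2d on chromosome 3 (126596302 to 126846326, plus strand) and Camk2g on chromosome 14 (20734875 to 20794088, minus strand).
Camk2b: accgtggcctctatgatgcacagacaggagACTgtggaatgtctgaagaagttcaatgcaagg
Camk2d: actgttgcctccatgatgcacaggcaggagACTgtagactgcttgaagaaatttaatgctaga
Camk2g: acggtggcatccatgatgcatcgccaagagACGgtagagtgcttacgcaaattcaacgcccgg
Camk2b and Camk2d differed at 12 of the 63 bases, Camk2b and Camk2g at 20, and Camk2d and Camk2g at 18. The stretch of Camk2a, not shown, was closest to that of Camk2b, with 8 differences, and had 13 to Camk2d and 20 to Camk2g. Across the whole principal transcripts, 0 of the 50-base words of Camk2b, Camk2d, Camk2g, Camk4, Ppp3ca, Ppp3cb and Nrgn occurred in a transcript of another gene, and 19 of 4921 did for Camk2a, none of them in another member. For Ppp3r1, 413 of 2810 such words also lay in transcripts of Wdr92, an overlapping gene on the same strand that was listed at 4.05 to 4.77 FPKM. An antisense gene overlaps Camk4 (2310026I22Rik, not analysed here). The labels name strand-specific libraries. They do not describe how strand, or reads from overlapping genes, were handled when the values were made.

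The files held abundances as log2(value + 1), read here as FPKM, which counts fragments relative to transcript length and library depth, and levels are printed on the FPKM scale. Steps between low values corresponded to about 8020000, 8820000 and 12720000 fragments in HET 1 to HET 3 and 10740000, 8720000 and 9580000 in WT 1 to WT 3. At these depths the lowest member, Camk2d, still rested on about 107 to 169 fragments per kilobase of transcript in every library, and Camk2a on 2847 or more, an estimate that covers counting only. Nfat5, the disrupted gene, was at 8.25, 9.31 and 8.42 FPKM in HET 1 to HET 3, against 10.5, 8.39 and 9.72 FPKM in WT 1 to WT 3. The ranges overlapped (log2 difference -0.12, SE 0.0963, limma adjusted p = 1.00), so that this value did not check the labels and the libraries are named as labelled.

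Markers of the hippocampus were present in all 6 libraries. The 3 dentate gyrus markers (Prox1, Dsp, C1ql2) summed to 24.97 to 31.9 FPKM in HET and 29.98 to 32.8 FPKM in WT, and the 4 CA1 markers (Wfs1, Mpped1, Fibcd1, Pou3f1) to 75.7 to 82.1 FPKM in HET and 70.5 to 74.4 FPKM in WT. The libraries also differed in other tissue. The 8 thalamus markers, led by Prkcd and Slc17a6, summed to 163, 90.2 and 83.6 FPKM in HET 1 to HET 3, against 150 to 163 FPKM in WT. The 4 choroid plexus markers, led by Ttr, ranged from 94.3 to 3411 FPKM in HET and from 278 to 2858 FPKM in WT. No marker of these lists was under 0.1 FPKM in all 6 libraries.

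The first question was how the isoforms compare in level, which values per length allow. Camk2a led with a mean of 373 ± 70.7 FPKM, then came Ppp3r1 at 322 ± 7.34, Nrgn at 315 ± 14.3, Ppp3ca at 213 ± 24.5, Camk2b at 157 ± 10.03, Ppp3cb at 64.3 ± 6.14, Camk2g at 33.6 ± 2.23, Camk4 at 18.6 ± 1.61 and Camk2d at 14.4 ± 2.78 FPKM (SD, n = 6 libraries). Among the 13122 genes tested by level, Camk2a ranked 180, Ppp3r1 204 and Nrgn 209, while Camk4 and Camk2d ranked 4008 and 5010. Each neighbouring pair was compared within libraries with a two-sided exact sign-flip test over the 6 log2 ratios, adjusted over the 8 pairs. The order was itself taken from the means of these 6 libraries. The p-values thus describe how steady each step was between libraries and are no independent support for the order. They also do not cover an error in the level of a gene that all libraries share. Camk2a over Ppp3r1 did not pass (1.14-fold, higher in 5 of 6 libraries, exact p = 0.125, adjusted 0.143), and Ppp3r1 over Nrgn did not either (1.02-fold, higher in 4 of 6 libraries, exact p = 0.406, adjusted 0.406).

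The remaining 6 steps of the order held in 6 of 6 libraries, each with an exact p of 0.0313, the smallest that 6 libraries allow, and an adjusted p of 0.0417. Nrgn exceeded Ppp3ca 1.48-fold, Ppp3ca exceeded Camk2b 1.36-fold, and Camk2b exceeded Ppp3cb 2.44-fold. Further down, Ppp3cb exceeded Camk2g 1.91-fold, Camk2g exceeded Camk4 1.81-fold, and Camk4 exceeded Camk2d 1.31-fold, although the ranges of the last pair over the 6 libraries overlapped. The top of the order was the part that moved between libraries. Camk2a was first in 5 libraries and stood behind Ppp3r1 and Nrgn in HET 3, and Nrgn lay above Ppp3r1 in HET 1 and HET 2 and below it in the other 4 libraries.

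**Figure D1:**
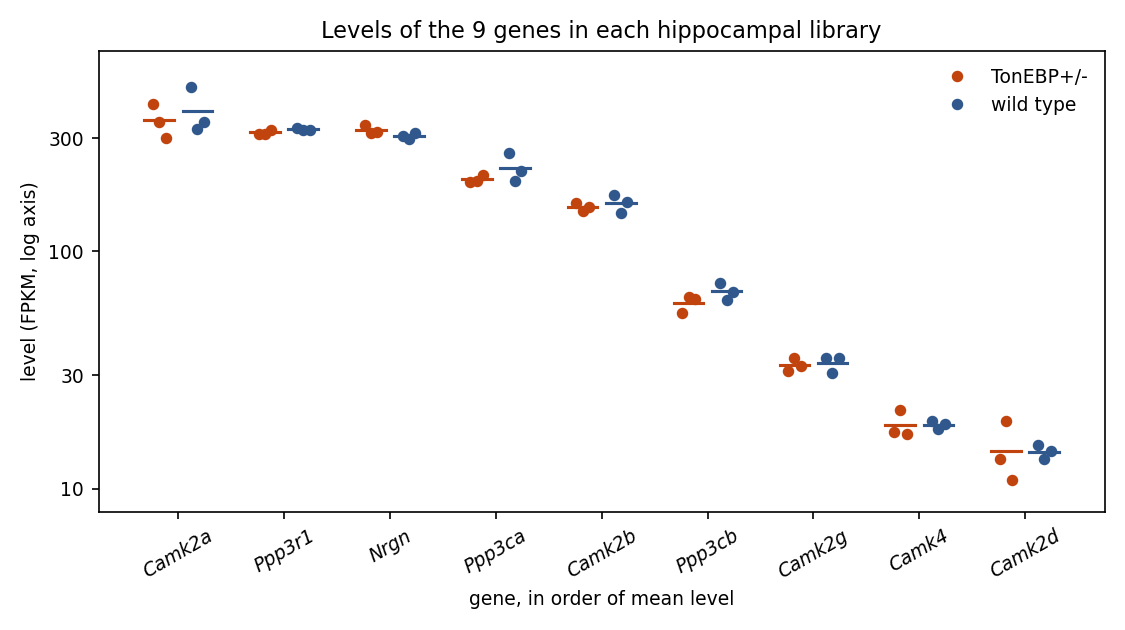
Level of each of the 9 genes in FPKM (log axis) in the 3 TonEBP+/- libraries (left of each pair) and the 3 wild-type libraries (right), with points for libraries and bars for the group means. The genes span from 14.4 FPKM on average for Camk2d to 373 FPKM for Camk2a, and the genotypes overlap in every gene.

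The second question was whether TonEBP+/- libraries differed from wild type. In limma, 0 of the 9 genes passed an adjusted p of 0.05, as did 0 of all 13122 genes tested (0%), and 0 of the 9 had an unadjusted p under 0.05, against 484 of all genes (3.69%). The libraries of the 2 genotypes overlapped in 9 of 9 members, where 8.52% of all genes did not overlap. The estimates were below 0 in 8 members and above 0 in Nrgn, with a median of -0.05, against 50% of all genes below 0 and a median of -0.00. Those of Camk4 (-0.0032) and Camk2d (-0.018) were close to 0, and the mean FPKM of these genes was 0.224% and 1.19% higher in HET. With WT 1 left out, the estimates of the kinase genes were above 0, as given below. The count below 0 is therefore no evidence of a shared decrease. Every adjusted p of a member was 1.00. In bulk RNA, fewer cells of a type and less RNA per cell cannot be told apart.

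**Figure D2:**
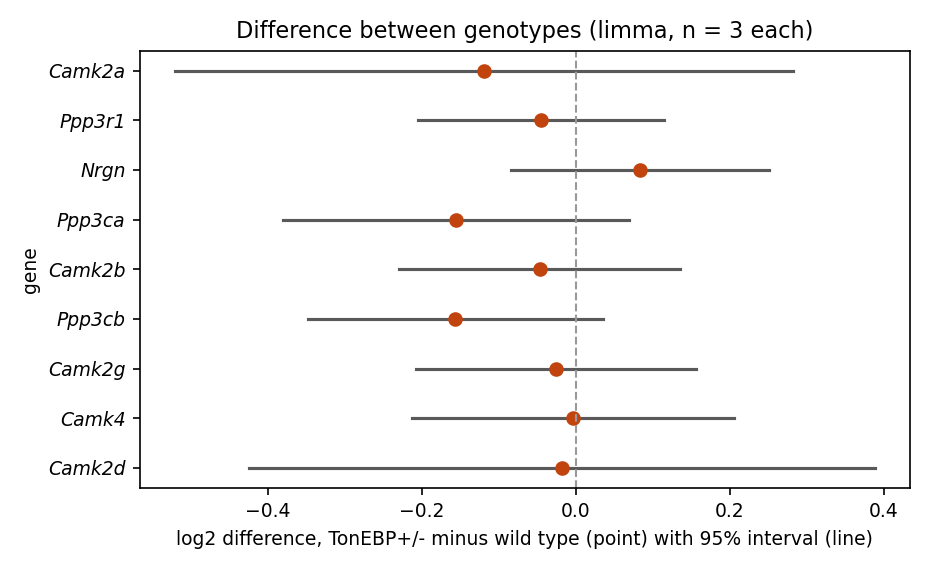
Log2 difference of each gene, TonEBP+/- minus wild type, from limma with n = 3 libraries each, where lines are 95% intervals. All 9 intervals include 0, and they are widest for Camk2a (-0.52 to 0.28) and Camk2d (-0.42 to 0.39).

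Camk2a encodes the alpha subunit of CaMKII, the major subunit of forebrain excitatory neurons. It was at 419, 349 and 301 FPKM in HET 1 to HET 3, against 493, 326 and 351 FPKM in WT 1 to WT 3. WT 1 and HET 1 were the high libraries of their groups, and HET 3 was the lowest of all. The log2 difference was -0.12 (SE 0.174, 95% interval -0.52 to 0.28, exact permutation p = 0.6). Its spread within genotypes (SD 0.28 on the log2 scale) was larger than that of 92.4% of the 262 genes within 2-fold of its level.

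Camk2b encodes the beta subunit, which also binds actin. It was at 160, 148 and 154 FPKM in HET 1 to HET 3, against 173, 145 and 161 FPKM in WT 1 to WT 3. Its HET libraries lay within the WT range, and the log2 difference was -0.05 (SE 0.0816, 95% interval -0.23 to 0.14).

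Camk2g and Camk2d encode the gamma and delta subunits, which are also made outside the brain. Camk2g was at 31.4, 35.6 and 33.0 FPKM in HET 1 to HET 3, against 35.5, 30.8 and 35.6 FPKM in WT 1 to WT 3 (log2 difference -0.03, SE 0.0814). Camk2d was at 13.3, 19.2 and 10.9 FPKM in HET 1 to HET 3, against 15.2, 13.3 and 14.4 FPKM in WT 1 to WT 3. HET 2 had the highest and HET 3 the lowest value of Camk2d, so that the WT libraries lay inside the HET range (log2 difference -0.02, SE 0.176). Of 5169 genes within 2-fold of its level, 97.2% had a smaller SD within genotypes. The sum of the 3 endothelial markers (Cldn5, Pecam1, Flt1) was likewise highest in HET 2 (34.3 FPKM) and lowest in HET 3 (22.4 FPKM). It was 29.5 FPKM in HET 1 and 25.8 to 31.1 FPKM in WT. Cldn5 and Flt1 were lowest in HET 3, whereas Pecam1 was lowest in WT 1 (5.34 FPKM, against 5.38 FPKM in HET 3). The part of the endothelial markers in the Camk2d values was not tested. The choroid plexus markers ran the other way, at sums of 94.3 FPKM in HET 2 and 3411 FPKM in HET 3. With their mean as a covariate, a fit chosen after seeing the data, the log2 difference of Camk2d was -0.03 and its SE 0.0949.

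Camk4 encodes a mainly nuclear CaM kinase that phosphorylates the transcription factor CREB. It was at 17.4, 21.4 and 17.0 FPKM in HET 1 to HET 3, against 19.3, 17.8 and 18.7 FPKM in WT 1 to WT 3. HET 2 was the highest, HET 1 and HET 3 were below all WT libraries, and the log2 difference was -0.00 (SE 0.0933, 95% interval -0.21 to 0.21).

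The signs of the 5 kinase genes turned when WT 1 was left out. Without it the log2 differences were 0.06 for Camk2a, 0.01 for Camk2b, 0.03 for Camk2d, 0.0071 for Camk2g and 0.02 for Camk4. Signs also turned without HET 1 (Camk2d, Camk2g and Camk4), without HET 3 (Camk2d and Camk4) and without WT 3 (Camk2g and Camk4). Camk2a was also above 0, at 0.11, in a fit that included the thalamus markers.

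The make-up of CaMKII was compared as the share of each gene in the sum of the 4, which a single scaling factor per library does not change. Camk2a supplied 67.2%, 63.2% and 60.4% of the sum in HET 1 to HET 3, against 68.8%, 63.4% and 62.4% in WT 1 to WT 3. Camk2b supplied 25.7%, 26.9% and 30.8% in HET, against 24.1%, 28.1% and 28.7% in WT. The gene pair of the brain thus made up most of the CaMKII transcripts in each library. Camk2g held 4.96% to 6.62% over all 6 libraries and Camk2d 2.13% to 3.48%. The shares differed by -1.28, 0.83, 0.27 and 0.18 percentage points (HET minus WT) for Camk2a, Camk2b, Camk2g and Camk2d, less than the SD within either genotype for Camk2a (3.42 in HET, 3.46 in WT). The two-sided exact permutation tests gave p of 0.6, 0.8, 0.5 and 0.8, where 3 against 3 cannot go below 0.1, and all 4 were 0.914 when adjusted over the 8 shares and ratios tested.

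**Figure D3:**
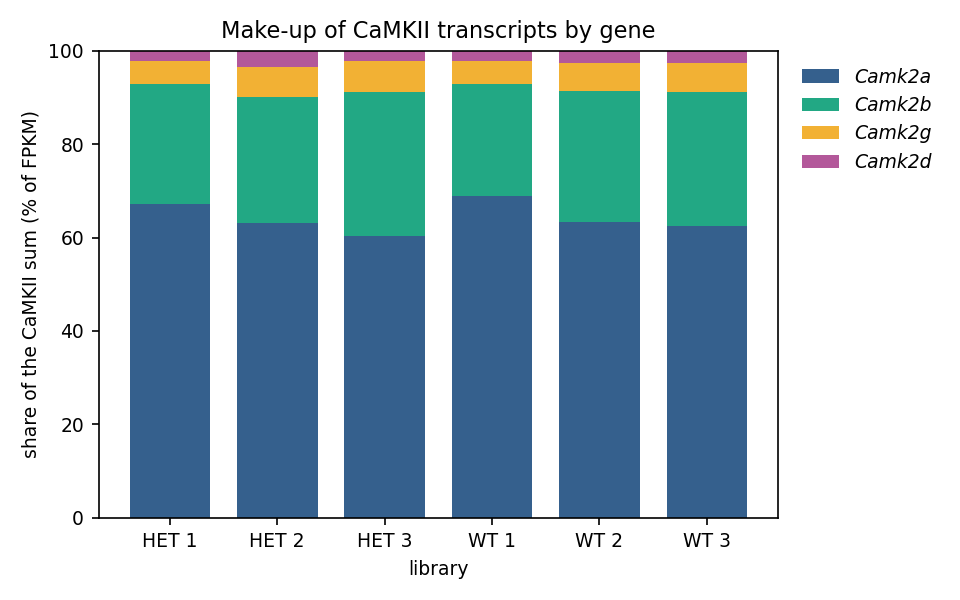
Share of each gene in the sum of Camk2a, Camk2b, Camk2g and Camk2d, in percent of FPKM, per library with TonEBP+/- on the left. Camk2a runs from 60.4% (HET 3) to 68.8% (WT 1), and Camk2b from 24.1% (WT 1) to 30.8% (HET 3).

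The 2 catalytic calcineurin genes had the lowest estimates among the 9 genes. Ppp3ca, the gene of the main catalytic subunit in brain, was at 196, 198 and 210 FPKM in HET 1 to HET 3, against 260, 198 and 218 FPKM in WT 1 to WT 3. HET 1 and HET 2 were below all WT libraries, HET 3 was above WT 2, and WT 1 stood highest (log2 difference -0.16, SE 0.101, 95% interval -0.38 to 0.07, exact permutation p = 0.2). Ppp3cb, the second catalytic gene, was at 55.2, 63.9 and 63.3 FPKM in HET 1 to HET 3, against 73.8, 62.3 and 67.5 FPKM in WT 1 to WT 3. HET 1 was the lowest library, and HET 2 and HET 3 lay between WT 2 and WT 3. The log2 difference was -0.16 (SE 0.0856, 95% interval -0.35 to 0.04), with an unadjusted p of 0.0987, the smallest of the 9. Both stayed below 0 without WT 1, at -0.05 for Ppp3ca and -0.09 for Ppp3cb. They were further from 0 without WT 2, at -0.24 and -0.22, and in the fits with the thalamus or the excitatory neuron markers. With the thalamus markers they were -0.21 for Ppp3ca and -0.29 for Ppp3cb. With the excitatory neuron markers they were -0.25 and -0.35, where the limma adjusted p was 0.867 for Ppp3ca and 0.861 for Ppp3cb. With the choroid plexus markers both stayed at -0.16. All 8 thalamus markers had estimates below 0 and all 5 excitatory neuron markers above 0. These 2 covariates thus partly run with genotype, and the fits cannot separate the 2 cleanly. The 6 interneuron markers (Gad1, Gad2, Slc32a1, Pvalb, Sst, Vip) summed to 177 to 223 FPKM in HET and 236 to 243 FPKM in WT. Pvalb was the one among the 6 whose genotypes did not overlap, where 8.52% of all genes did not. It was at 73.2, 74.1 and 72.6 FPKM in HET against 82.4, 128 and 94.4 FPKM in WT. Vip had an estimate above 0 (0.19). The part of the interneuron markers in the calcineurin values was not tested.

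Because Ppp3cb had the smallest p, the 250 bases before its start are shown (RefSeq, GRCm38.p6, chr14:20546574-20546823, minus strand, outside the transcripts annotated for the gene), written 5′ to 3′ with no capitals because none of the motifs searched occurred.
Ppp3cb: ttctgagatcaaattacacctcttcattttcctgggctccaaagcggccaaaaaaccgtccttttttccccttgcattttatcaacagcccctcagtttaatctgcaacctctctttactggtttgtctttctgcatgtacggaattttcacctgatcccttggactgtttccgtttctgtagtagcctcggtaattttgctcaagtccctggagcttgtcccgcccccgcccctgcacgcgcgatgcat
The letters TGGAAA, shared by NFAT sites and tonicity-responsive elements, were searched on both strands of the 250 bases before the RefSeq start of the 5 members with an entry in the promoter table (Camk2b, Camk2d, Ppp3cb, Ppp3r1 and Nrgn). Apart from that of Ppp3cb, these windows overlap annotated transcripts, and those of Camk2b and Camk2d lie inside the gene as GENCODE M21 annotates it. They were found in 0 of 5, where 18.6% of 32851 promoters held them. TGACG, the core of the CREB site, occurred in 1 of 5 (Ppp3r1), where 17.8% of all promoters held it. The longer CREB site TGACGTCA, which contains that core, occurred in 0 of 5 and in 1.55% of all. Such matches describe letters in a window and say nothing of binding.

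Ppp3r1, the regulatory subunit gene, was the steadiest of the 9. It was at 313, 312 and 325 FPKM in HET 1 to HET 3, against 330, 325 and 326 FPKM in WT 1 to WT 3, a range of 1.06-fold over the 6 libraries. HET 3 lay just above WT 2, and the other 2 HET libraries lay below all WT libraries (log2 difference -0.05, SE 0.0716, 95% interval -0.21 to 0.11, exact permutation p = 0.2). Its SD within genotypes was 0.0242 on the log2 scale, and 0.987% of the 304 genes within 2-fold of its level had a smaller one.

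The proportions within calcineurin overlapped between the 2 genotypes. Ppp3ca supplied 78.0%, 75.6% and 76.8% of the catalytic sum in HET 1 to HET 3, against 77.9%, 76.1% and 76.3% in WT 1 to WT 3 (exact permutation p = 1.0). The ratio of Ppp3r1 to the catalytic sum was 1.25, 1.19 and 1.19 in HET 1 to HET 3, against 0.989, 1.25 and 1.14 in WT 1 to WT 3. WT 1 was the only library with more catalytic than regulatory transcript, and the exact permutation test gave p = 0.4 (0.914 adjusted over the 8). The log2 ratio differed by 0.11, against an SD of 0.0385 in HET and 0.168 in WT, and by 0.02 without WT 1 and 0.19 without WT 2. The CaMKII sum exceeded the catalytic calcineurin sum 2.49, 2.11 and 1.83-fold in HET 1 to HET 3, against 2.15, 1.98 and 1.97-fold in WT 1 to WT 3, with overlapping ranges (exact permutation p = 0.8).

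Nrgn encodes neurogranin, a small postsynaptic protein that holds calmodulin when calcium is low. It was at 340, 315 and 319 FPKM in HET 1 to HET 3, against 305, 298 and 315 FPKM in WT 1 to WT 3. It was the single member with an estimate above 0 (log2 difference 0.08, SE 0.0750, 95% interval -0.08 to 0.25, exact permutation p = 0.2), and HET 2 lay just below WT 3. The ratio of Nrgn to the CaMKII sum was 0.544, 0.569 and 0.639 in HET 1 to HET 3, against 0.426, 0.578 and 0.560 in WT 1 to WT 3. WT 1 was the lowest, HET 3 the highest, and the remaining 4 libraries overlapped (exact permutation p = 0.5). Of the markers of excitatory neurons, which express Nrgn, Slc17a7 averaged 247 ± 16.4 FPKM in HET and 235 ± 18.3 FPKM in WT, and Neurod2 averaged 20.5 ± 0.962 FPKM in HET and 17.8 ± 1.86 FPKM in WT (SD, n = 3 each). Neither passed the threshold. With the mean of the excitatory neuron markers as a covariate the difference of Nrgn was 0.14.

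The 9 genes did not vary as 1 block. WT 1 was the highest library for 5 of them (Camk2a, Camk2b, Ppp3ca, Ppp3cb and Ppp3r1), HET 2 for 3 (Camk2d, Camk2g and Camk4) and HET 1 for Nrgn. The lowest library was HET 3 for Camk2a, Camk2d and Camk4, WT 2 for Camk2b, Camk2g and Nrgn, HET 1 for Ppp3ca and Ppp3cb, and HET 2 for Ppp3r1. In WT 1, Camk2a was 0.42, Ppp3ca 0.29 and Ppp3cb 0.20 above their means over the 6 libraries on the log2 scale, whereas Nrgn was 0.04 below its own.

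**Figure D4:**
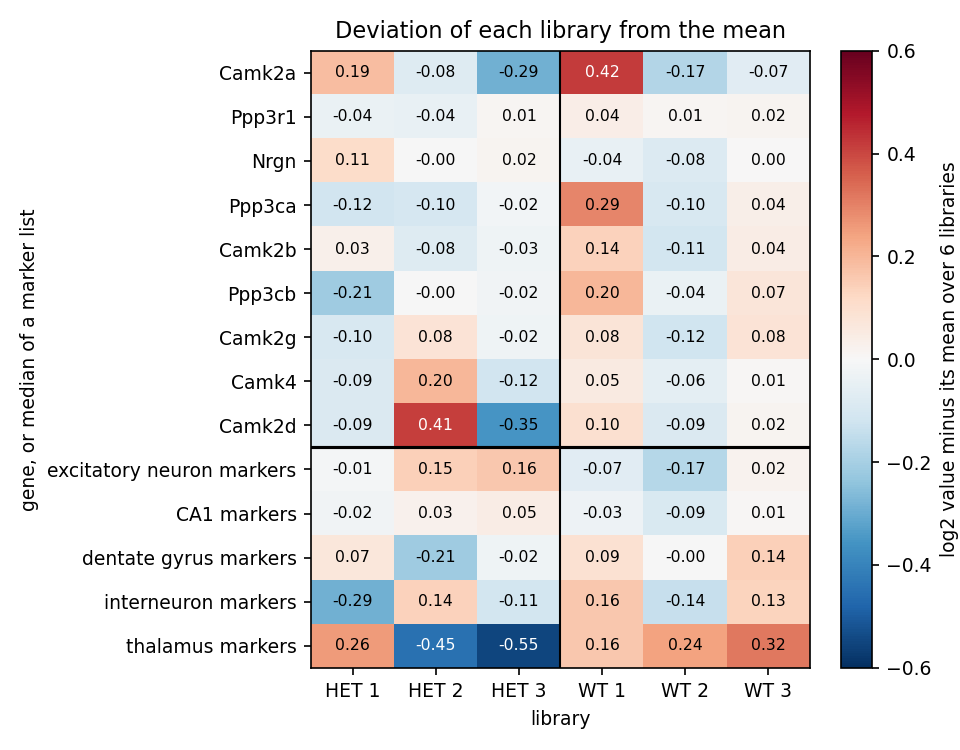
Log2 value of each gene in each library minus its mean over the 6 libraries, with medians of 5 marker lists below the line. Camk2a, Ppp3ca and Ppp3cb are high in WT 1 (0.42, 0.29 and 0.20), Camk2d is high in HET 2 (0.41) and low in HET 3 (-0.35), and the thalamus markers are low in HET 2 (-0.45) and HET 3 (-0.55).

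For 3 members, the genes with the most similar course over the 6 libraries were taken from 6516 genes with a mean of at least 10 FPKM, by the root mean square difference of centred log2 values. For Camk2a they were Camta2, a calmodulin-binding transcription activator gene (0.0504), 2310022B05Rik (0.0667) and Mtss1l (0.0697), and the nearest member was Camk2b at rank 325 (0.177). For Ppp3ca they were Ptk2b, which encodes a calcium-activated tyrosine kinase (0.0288), 2700060E02Rik (0.0289) and the RNA-binding protein gene Khdrbs1 (0.0375), and the nearest member was Ppp3cb at rank 104 (0.0721). For Nrgn they were Gosr1 (0.0111) and Stx6 (0.0203), both SNARE genes, and the GTPase gene Gnl2 (0.0216), with Ppp3r1 as the nearest member at rank 1320 (0.0811). Nrgn itself varied little, with an SD of 0.0643 over the 6 libraries. That is less than its difference from Ppp3r1, so Ppp3r1 did not follow its course. These are descriptions of 6 libraries.

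The rest of the pathway comprised 56 further genes in 7 lists, of which 54 were tested. In limma 0 of the 54 passed in either direction, 31 had estimates above 0 and 23 below, and the median was 0.02. The genotypes did not overlap in 9 of 54 (3 higher and 6 lower in HET), against 4.13% higher and 4.39% lower among all genes. An unadjusted limma p under 0.05 was found for 4 of the 54, against 3.69% of all genes. Every adjusted p of the 54 genes was 1.00. The 2 genes left out by the filter were Ppp3r2, a testis calcineurin subunit gene at 0.11 to 0.16 FPKM over all libraries, and Nfatc4, at 0.42 to 0.47 FPKM in HET and 0.16 to 0.24 FPKM in WT.

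Among the calmodulin genes, which were at high level, Calm2 averaged 1469 ± 44.3 FPKM in HET and 1465 ± 158 FPKM in WT (SD, n = 3 each), and the log2 differences of Calm2 and Calm3 were 0.01 and 0.02 (SE 0.114 and 0.0866). Among the 4 other calmodulin-binding genes, 2 did not overlap between genotypes, where 8.52% of all genes did not. Pcp4, whose product speeds calcium exchange of calmodulin, was at 162, 109 and 128 FPKM in HET 1 to HET 3, against 208, 235 and 171 FPKM in WT 1 to WT 3 (log2 difference -0.63, SE 0.162, exact permutation p = 0.1). Its relative Pcp4l1 was at 55.3, 35.7 and 48.9 FPKM in HET, against 61.8, 67.2 and 61.7 FPKM in WT (log2 difference -0.46, SE 0.143, exact permutation p = 0.1). All HET libraries of both genes were below all WT libraries, and HET 2 and HET 3, the libraries low in thalamus markers, were the lowest. The fit with the thalamus markers included both genes, and 0 of the other pathway genes passed in it. As that covariate partly runs with genotype, the part of thalamic tissue in these 2 values was not tested separately. Marcks (0.06, SE 0.0903) and Gap43 (0.02, SE 0.0968) overlapped.

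Among 10 other CaM kinase and CaMKII inhibitor genes, 6 had estimates above 0 and 4 below. The smallest p belonged to Camk2n2, a CaMKII inhibitor gene, at 15.6, 16.3 and 10.04 FPKM in HET against 19.3, 16.2 and 16.7 FPKM in WT (log2 difference -0.32, SE 0.167), with HET 3 far below the rest. Camk1 (0.13, SE 0.0805), Camk1g (0.14, SE 0.0924) and Eef2k (0.11, SE 0.0921) followed. Eef2k, the kinase gene of elongation factor 2, was the one whose genotypes did not overlap, with all HET libraries higher. Of 8 tested calcineurin subunit, regulator and anchor genes, Rcan2 and Rcan3, which encode regulators that bind calcineurin, did not overlap and were lower. Among all genes 8.52% did not overlap in either direction. Rcan2 was at 71.3, 59.1 and 62.0 FPKM in HET, against 71.9, 73.8 and 72.3 FPKM in WT (log2 difference -0.18, SE 0.0788). HET 1 was next to the WT libraries, and HET 2 and HET 3, low in thalamus markers, were the low ones for Rcan2. Rcan2 did not pass in the fit with the thalamus markers either, and the part of thalamic tissue was not tested separately. Rcan3 averaged 5.62 ± 0.0616 FPKM in HET and 6.49 ± 0.356 FPKM in WT (log2 difference -0.18, SE 0.0845; SD, n = 3 each). Rcan1, known as an NFATc-induced regulator in other tissues, overlapped (0.09, SE 0.0890), as did the immunophilin gene Fkbp1a (-0.12, SE 0.0868).

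Among 8 genes of other phosphatases and their inhibitors, 3 did not overlap between genotypes, where 8.52% of all genes did not. Ppp1r1a, the gene of phosphatase inhibitor 1, which calcineurin dephosphorylates, was at 36.2, 37.6 and 36.7 FPKM in HET, against 33.3, 32.5 and 29.8 FPKM in WT (log2 difference 0.20, SE 0.0685, exact permutation p = 0.1). Ppm1f, a phosphatase gene known for acting on CaMKII, was higher in all HET libraries (0.12, SE 0.0697), and Ppp1cb, a catalytic subunit gene of phosphatase 1, was lower in all of them (-0.11, SE 0.0673). Of 13 tested transcriptional effectors, 9 had estimates above 0 and 4 below, with a median of 0.07. Nfatc2, a calcineurin-dependent NFAT gene, did not overlap but was near the filter, at 1.16 ± 0.189 FPKM in HET and 1.49 ± 0.258 FPKM in WT (SD, n = 3 each; log2 difference -0.20, SE 0.134), and Mef2a (-0.10, SE 0.0717), Creb1 (0.10, SE 0.0850) and Hdac4 (0.12, SE 0.104) overlapped. The 8 synaptic substrates and anchors lay from -0.08 to 0.03, with 2 estimates above 0 and 6 below. Lrrc7 (-0.07, SE 0.0751), a gene of the CaMKII-binding scaffold densin, Gria1 (-0.08, SE 0.0872) and Grin2b (-0.08, SE 0.101), both glutamate receptor genes, had the smallest p among them.

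**Figure D5:**
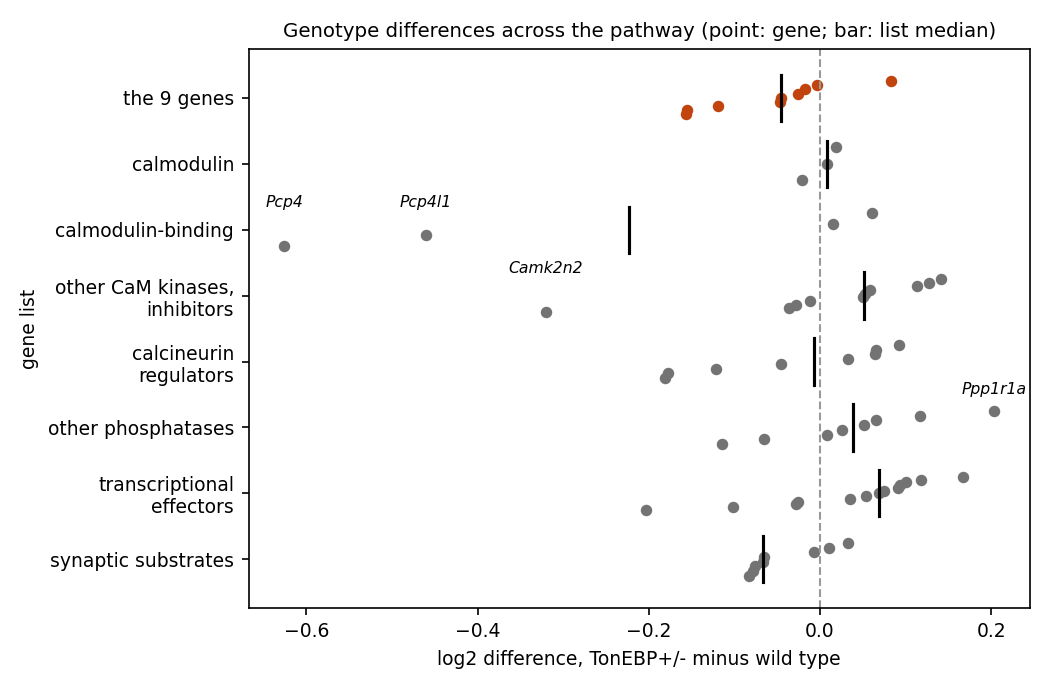
Log2 difference of each tested gene, TonEBP+/- minus wild type, by gene list (points), with the list median as a bar. The 9 genes lie between -0.16 and 0.08, and the largest distances from 0 among the other pathway genes are those of Pcp4 (-0.63) and Pcp4l1 (-0.46).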

How the data were processed

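Hippocampal RNA of 3 TonEBP+/- and 3 wild-type libraries (1.3 ug of total RNA each) went into strand-specific NEBNext Ultra II Directional libraries, per the labels' protocols. The submitters' processing notes name TopHat and mm10; no version, annotation or quantifying program was found in the labels or headers. The deposited values are log2(value + 1) per gene symbol, a unit read from the values because no header names it. Low values, times transcript length, fell within 0.15 of a whole step for 68.4% to 72.6% of genes under 3.5 steps. The depth of each library was the one, of many tried, that made this percentage highest. An even spread gives 30% at a depth fixed beforehand, so the comparison favours the reading and is no test of the unit. If the log base were another, the differences would change. The sum of all values ran from 1043360 FPKM in HET 3 to 3620180 FPKM in WT 1. The medians of the tested genes were 9.74 (WT 2) to 10.0 FPKM (HET 3). HET 1, HET 3, WT 1 and WT 3 each had 4262 genes at 0, against 6917 in HET 2 and 6210 in WT 2. Whether the submitters scaled or filled values is not known, and its part in the unit and depth estimates was not tested. Low genes are understated by the pseudocount of 1.

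Groups followed the labels. The 13122 genes that reached 1 FPKM in 3 or more libraries entered a limma fit (version 3.58.1, R 4.3.3) on the deposited log2 values (genotype only; eBayes with trend and robust options; Benjamini-Hochberg over all genes; threshold 0.05), after a test on simulated data. SE and 95% intervals are from limma. Shares, ratios and single genes were compared with two-sided exact permutation tests. The 9 genes, the gene lists and the marker lists were chosen with earlier results of these data known. Named were the 9 members, the 2 to 4 genes of each list with the smallest p, the 3 genes most like Camk2a, Ppp3ca and Nrgn, and markers, of which some are not reported here; Ppp3r2, Nfatc4, Wdr92 and the antisense gene were named after their values were seen. Positions and sequences are from GENCODE M21 and RefSeq on GRCm38, the assembly that mm10 names. Alternatives were other scalings, filters, pseudocounts, eBayes options, marker covariates, a replicate block and each library left out. Python 3.11.15 and matplotlib 3.10.9 were used for tables and figures.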

Additional observations from a re-analysis of the deposited data

How the results depend on the processing

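The number of members past the threshold was 0 under all 18 other fits and at an adjusted p of 0.1, and so was that of the other pathway genes. That of all genes ranged from 0 to 8 with a library left out (8 without HET 1, and 1 each without HET 3, WT 1 and WT 2). The signs of Ppp3ca (-0.25 to -0.05), Ppp3cb (-0.35 to -0.09), Ppp3r1 (-0.07 to -0.04) and Nrgn (0.05 to 0.14) held in all 18 fits. Camk2a had 0.11 with the thalamus covariate and 0.039 with the excitatory neuron covariate, and Camk4 had 0.0034 with quantile normalization. With a library left out, the log2 differences ranged from -0.24 to 0.062 for Camk2a, -0.11 to 0.011 for Camk2b, -0.23 to 0.15 for Camk2d, -0.093 to 0.016 for Camk2g and -0.10 to 0.054 for Camk4. The shares of CaMKII (percentage points) ranged from -3.08 to 0.70 for Camk2a, -0.69 to 1.90 for Camk2b, -0.26 to 0.41 for Camk2d and -0.12 to 0.77 for Camk2g. The share of Ppp3ca ranged from -0.56 to 0.63, was -0.068 with quantile normalization and was -0.42 with Ppp3cc in the sum. The log2 ratio of CaMKII to catalytic calcineurin ranged from -0.048 to 0.17. The cause of these sign changes was not tested. The order of levels was the same with each library left out and in WT alone, and in HET alone Nrgn and Ppp3r1 changed places, so that 7 of 9 kept theirs. The choroid plexus covariate was chosen after seeing the data and turned no sign. Same-numbered libraries deviated against each other (r = -0.21, -0.25 and -0.16 over genes) and did not pair over all genes. With the replicate block, 0 members passed and the difference of Ppp3cb was -0.16. The block lowered the SE of Camk2a from 0.174 to 0.115 and that of Camk2d from 0.176 to 0.172. The SE of every other member was larger with the block. The fewest fragments behind a value of a member were those of Camk2d in HET 1, about 107 per kilobase, an estimate. The part of depth in the width of the intervals was not tested.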
